A study of Homo sapiens with 2 samples.

Results

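Translation initiation, elongation and release factors are the proteins that load ribosomes onto mRNA, move them along it and free the finished chain. Their genes were chosen by name, as protein-coding genes whose symbols begin with EIF or EEF and a digit, with GSPT1, GSPT2, ETF1 and ABCE1 added and the EIF4EBP genes left out. The peak table named 30 such genes among 8386 protein-coding genes, and these 30 held 48 of its 21440 peaks. RefSeq lists 71 protein-coding genes with such names, of which 70 lie on chromosomes 1 to 22 and X and form the denominator here. EIF1AY lies on chromosome Y, where no peak was called. The peaks came from chromatin immunoprecipitation and sequencing (ChIP-seq) with an antibody against mTOR. The cells were MDA-MB-231, a long-used human cell line from a triple-negative breast cancer, kept in serum, with no treatment named in the labels. There was 1 mTOR library and 1 input library, the chromatin before enrichment, which served as the reference for peak calling. Neither was replicated, so no difference was tested. Intervals are exact Clopper-Pearson 95% intervals for counting error only, and genes are not replicates. The list carries no read counts, so the depth is unknown. It also holds no expression values, so the cell line could not be checked by its markers.

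The kinase mTOR controls this machinery in the cytoplasm. Its complex mTORC1 phosphorylates the 4E-BP proteins, which otherwise hold the cap-binding protein eIF4E, and the S6 kinases, which act on the helicase cofactor eIF4B and on eEF2 kinase, the inhibitor of the elongation factor eEF2. Many elongation factor and ribosomal protein mRNAs start with a pyrimidine tract that makes their translation depend on mTORC1. ChIP-seq of mTOR asks a different question, namely where the kinase lies on chromatin.

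Peaks lay at the promoters of 22 of the 70 translation factor genes, or 31.4% (20.9 to 43.6%). Over all 19974 protein-coding genes the share was 15.5%. A promoter peak is one assigned to the gene by the deposited annotation that overlaps 1 kb either side of the start site. EIF4A2, encoding an RNA helicase of the cap-binding complex, had the highest score among these promoters with 260. GSPT1, the GTPase that acts in termination as eRF3, followed with 191, and EIF4E with 159. The score is the authors' own value for each peak, runs from 13 to 5636 in the whole table with a median of 61, and has no stated scale. It serves here to rank peaks only.

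The scores of these promoter peaks were not high. The median of the best promoter peak per gene was 45 in the 22 translation factor genes, with quartiles at 37 and 95.3. Over the 3097 protein-coding genes with a promoter peak it was 58, with quartiles at 36 and 100. A promoter peak of 100 or more was present at 6 of the 70 genes, beside 787 of all 19974 protein-coding genes (3.94%). Among genes with a promoter peak, the 6 were 27.3% of the 22, against 25.4% of the 3097. A score of 200 or more was reached by EIF4A2 alone (4.55%, against 10.2%). Among the 10720 higher-scoring peaks, 9 of 70 genes kept a promoter peak (12.9%, interval 6.05 to 23.01%), beside 7.45% of all protein-coding genes. With the window widened to 5 kb, 23 of 70 had a promoter peak (32.9%), beside 20.3%. The 9 among the higher-scoring peaks were EIF4A2, GSPT1, EIF4E, EIF3B, ETF1, EEF1D, EIF3F, EIF2B3 and EIF2D. Among the 2144 top-scoring peaks EIF4A2 alone was left, 1.43% of the list beside 1.57% of all genes.

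**Figure D1:**
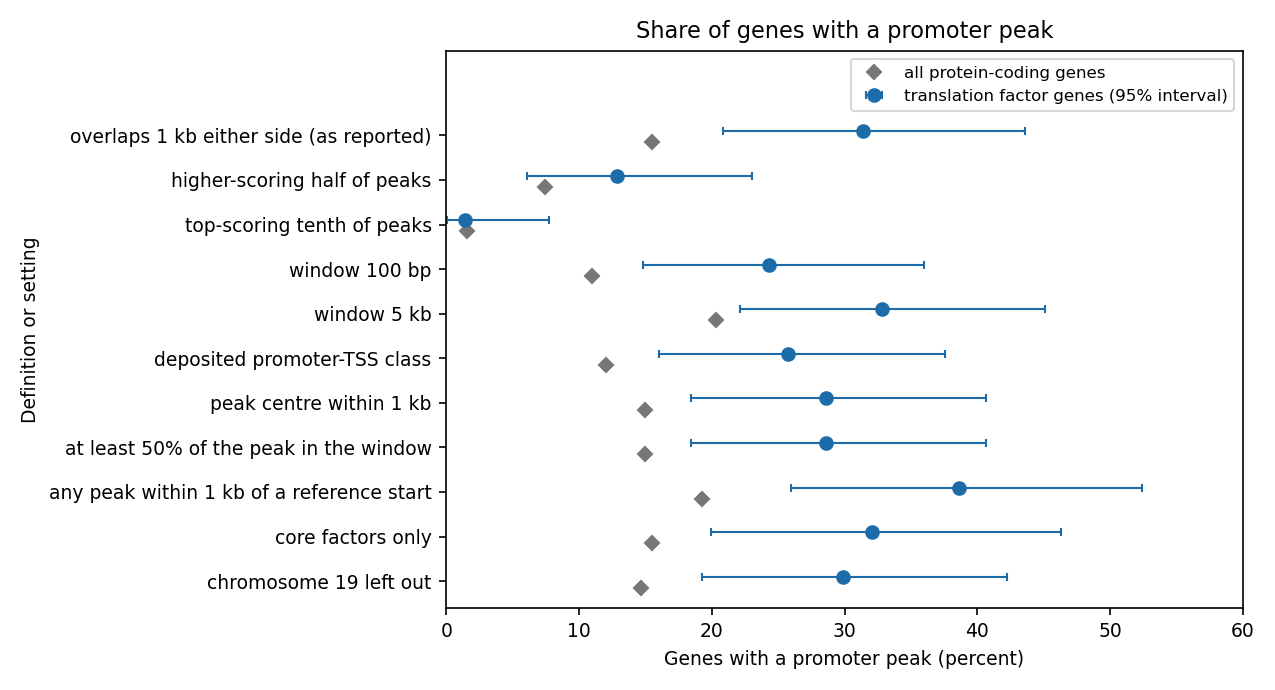
Percent of genes with a promoter peak (horizontal axis) under each definition (vertical axis), for translation factor genes (circles, bars are exact 95% intervals) and all protein-coding genes (diamonds). The circle lies at 31.4% and the diamond at 15.5% under the reported definition, while both lie between 1% and 2% among the 2144 top-scoring peaks.

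Fewer of the genes had a peak away from the promoter than at it. A distal peak, assigned to the gene but outside the promoter window, was found for 15 of 70 genes, or 21.4% (12.5 to 32.9%), beside 32.5% of all protein-coding genes. The share with any assigned peak was 42.9% (31.1 to 55.3%), beside 41.7%. Of the 48 assigned peaks 24 were promoter peaks (interval 35.2 to 64.8%), whereas 21.7% of the 15375 peaks assigned to protein-coding genes were. Per Mb of summed gene length there were 9.84 distal peaks in the list and 9.31 over all protein-coding genes. Median gene length was 21593.5 bp in the list and 24170.5 bp over all protein-coding genes, and its part in these shares was not tested.

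**Figure D2:**
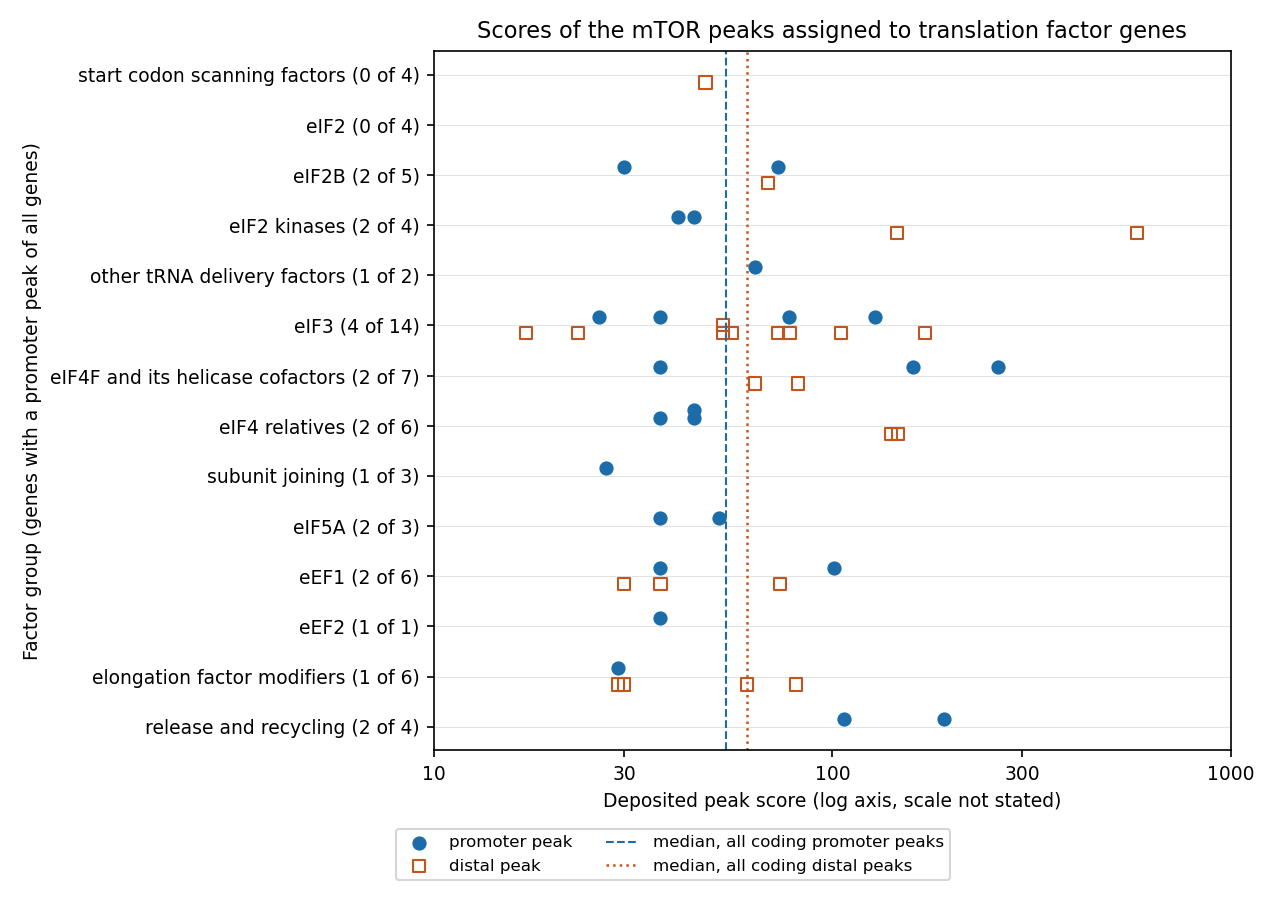
Deposited score (horizontal log axis) of each of the 48 peaks by factor group (vertical axis), with filled circles for promoter peaks and open squares for distal peaks; points with equal scores are set apart vertically. The dashed and dotted lines mark the medians of 54 and 61 over all promoter and distal peaks of protein-coding genes, and the EIF2AK2 distal peak at 581 stands farthest to the right.

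The sequences before the start sites show part of what lies under the promoter peaks. RefSeq promoter windows on GRCh38.p14, which run from 250 bases before the start to 50 after it, were found for 57 of the 70 genes, 20 of them with a promoter peak. The 250 bases before the start are given 5′ to 3′ for 8 genes, with capitals for matches on either strand to the 9 short motifs that were searched. The first 4, EIF4A2, GSPT1, EIF3B and ETF1, are the highest-scoring promoters whose peak overlaps the printed bases. Their peaks are 709, 969, 831 and 388 bp wide. The peak centres, at -293, 284, -336 and -324 bp from the assigned start, lie outside the printed bases. Where a gene has several RefSeq starts, the bases before the start nearest to the one the peak was assigned to are shown. EIF4A2 (chr3:186783327-186783576, plus strand) and EIF3B (chr7:2354577-2354826, plus strand) lay wholly under their peaks. GSPT1 (chr16:11916655-11916904, minus strand) had 200 of its 250 bases covered and ETF1 (chr5:138543237-138543486, minus strand) 120, in both cases with one end outside the peak.
EIF4A2: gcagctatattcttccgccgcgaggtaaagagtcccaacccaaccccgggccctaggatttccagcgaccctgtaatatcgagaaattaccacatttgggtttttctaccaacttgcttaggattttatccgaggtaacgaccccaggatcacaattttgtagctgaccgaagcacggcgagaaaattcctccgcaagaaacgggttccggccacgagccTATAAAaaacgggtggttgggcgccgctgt
GSPT1: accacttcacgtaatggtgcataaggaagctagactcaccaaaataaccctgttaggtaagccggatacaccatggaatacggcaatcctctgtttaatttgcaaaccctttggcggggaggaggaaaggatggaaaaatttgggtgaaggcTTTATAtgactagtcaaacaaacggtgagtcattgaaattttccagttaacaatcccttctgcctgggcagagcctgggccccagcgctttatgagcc
EIF3B: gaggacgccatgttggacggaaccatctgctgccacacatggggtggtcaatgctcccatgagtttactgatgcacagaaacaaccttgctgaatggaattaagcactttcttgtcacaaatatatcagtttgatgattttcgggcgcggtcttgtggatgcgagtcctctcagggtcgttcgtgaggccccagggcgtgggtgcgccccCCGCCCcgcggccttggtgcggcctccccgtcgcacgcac
ETF1: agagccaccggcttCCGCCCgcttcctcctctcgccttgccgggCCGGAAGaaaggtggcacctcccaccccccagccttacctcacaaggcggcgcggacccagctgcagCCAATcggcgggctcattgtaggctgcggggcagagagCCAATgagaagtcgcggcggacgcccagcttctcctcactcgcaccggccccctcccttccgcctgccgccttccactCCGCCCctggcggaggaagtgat

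The EIF4A2 stretch holds a TATAAA match that begins 30 bases before the start and no other searched motif. That of GSPT1 holds the same letters on the other strand, beginning 98 bases before the start. ETF1 has an SP1 match (GGGCGG), an ETS match (CCGGAAG) and a CCAAT box, the NF-Y letters, under its peak, with first bases at -236, -206 and -139 from the start. A second CCAAT box at -101 and a second SP1 match at -23 lie outside it. EIF3B has a single SP1 match. These matches are letters in a window and were not tested as binding sites.

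The next 3 printed promoters are examples that carry CACGTG, the E-box bound by MYC, MAX and related factors, under a peak covering all 250 bases. They are EIF3F (chr11:7987087-7987336, plus strand), EIF2B3 (chr1:44986596-44986845, minus strand) and EIF5A2 (chr3:170908638-170908887, minus strand). Their peaks scored 78, 73 and 37, so they are not the next 3 by score. Promoters with scores between 73 and 37, with and without CACGTG in their windows, were passed over. The RefSeq start used for EIF2B3 lies 127.5 bp from the one the deposited annotation assigned. EEF2 (chr19:3985464-3985713, minus strand) is shown as the elongation factor promoter with 83 bases under its peak. These bases hold an SP1 match, a TATAAA match and TGACGTCA, the cyclic AMP response element, with first bases at -50, -30 and -13.
EIF3F: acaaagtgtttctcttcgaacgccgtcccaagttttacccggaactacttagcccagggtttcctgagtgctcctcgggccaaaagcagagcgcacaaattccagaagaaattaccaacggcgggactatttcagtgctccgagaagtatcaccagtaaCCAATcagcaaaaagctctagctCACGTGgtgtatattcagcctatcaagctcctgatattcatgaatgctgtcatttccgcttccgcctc
EIF2B3: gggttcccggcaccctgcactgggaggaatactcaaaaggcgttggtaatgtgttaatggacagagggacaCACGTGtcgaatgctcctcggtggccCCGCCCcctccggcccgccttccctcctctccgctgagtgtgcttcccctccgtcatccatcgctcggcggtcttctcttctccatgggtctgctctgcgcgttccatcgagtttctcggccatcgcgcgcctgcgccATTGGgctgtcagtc
EIF5A2: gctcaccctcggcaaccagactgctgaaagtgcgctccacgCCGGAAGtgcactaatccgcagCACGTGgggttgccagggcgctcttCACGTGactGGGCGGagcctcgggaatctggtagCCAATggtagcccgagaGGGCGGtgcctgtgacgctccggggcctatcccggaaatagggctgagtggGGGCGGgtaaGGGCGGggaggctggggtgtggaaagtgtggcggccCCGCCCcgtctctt
EEF2: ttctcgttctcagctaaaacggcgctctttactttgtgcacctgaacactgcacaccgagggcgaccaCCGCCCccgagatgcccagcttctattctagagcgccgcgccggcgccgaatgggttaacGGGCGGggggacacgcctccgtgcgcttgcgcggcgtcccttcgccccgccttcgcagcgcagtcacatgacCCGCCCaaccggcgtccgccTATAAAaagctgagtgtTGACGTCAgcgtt

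CACGTG occurred in the windows of 14 of the 57 genes, where 10.9% of protein-coding genes with a window had it. It was found in 7 of the 20 with a promoter peak (EEF2K, EIF2AK2, EIF2B3, EIF3F, EIF4A3, EIF4E and EIF5A2) and in 7 of the 37 without. Of the latter, EEF1AKMT4 and the readthrough gene EEF1AKMT4-ECE2 share 1 start. Over all protein-coding genes the shares were 13.4% with a promoter peak and 10.4% without. ACTACA, the core letters of the motif shared by RONIN and ZNF143, was present in the windows of 4 of the 57 genes, EIF2B5, GSPT1, EIF1B and EIF2B4, beside 10.4% of all genes. In GSPT1 it was not among the printed bases. ACTACA was found in 2 of the 20 with a promoter peak and 2 of the 37 without, beside 14.8% and 9.56% over all genes. CCGGAAG was present in 16 of 57, CCAAT in 27 of 57 and GGGCGG in 43 of 57, beside 16.5%, 42.1% and 64.3% of all genes. AAGATGGC, the YY1 letters, was present in 5 of 57, TGACGTCA in 2 of 57, TATAAA in 3 of 57 and the NRF1 palindrome in 0 of 57. Over all genes the shares of these 4 motifs were 4.67%, 2.998%, 12.4% and 1.99%. With a promoter peak they were found in 3, 1, 3 and 0 of the 20, and without in 2, 1, 0 and 0 of the 37. Over all genes the shares were 7.30%, 3.92%, 9.05% and 1.90% with a promoter peak and 4.16%, 2.82%, 13.1% and 2.01% without. None of these splits was tested. Matches were counted on both strands. Taken per window, since some genes have several, the shares over the 22156 windows of protein-coding genes were 8.34% for CACGTG, 7.93% for ACTACA, 12.8% for CCGGAAG, 34.6% for CCAAT, 56.3% for GGGCGG, 3.53% for AAGATGGC, 2.26% for TGACGTCA, 9.46% for TATAAA and 1.503% for the NRF1 palindrome.

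A cytosine at the annotated start followed by at least 4 pyrimidines, the form of the mTORC1-sensitive mRNA start, was found in 13 of the 57 genes and in 6.24% of all genes. This search was added after the peaks had been seen, and RefSeq starts need not be the starts used in these cells. A promoter peak was present at 6 of the 13, EEF1A1, EEF2, EIF2D, EIF3F, EIF3M and EIF4A2. It was absent at EEF1B2, EIF2A, EIF2S3, EIF2S3B, EIF3D, EIF3K and EIF4B. Among the 44 genes without such a start 14 had a promoter peak. Put the other way, such a start was found in 6 of 20 with a promoter peak and 7 of 37 without. Over all protein-coding genes the shares were 7.84% with a promoter peak and 5.93% without. The difference was not tested.

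Within the list, genes with and without a promoter peak overlapped in GC content, with 49.7 to 74.7% and 47.7 to 75.7% over the window. Median GC over the window was 64.2% in the 20 with a peak and 62.7% in the 37 without, with medians of 26 and 26.3 CpG dinucleotides. Over all protein-coding genes the medians were 65.3% GC and 26 CpG with a promoter peak and 61.7% GC and 20 CpG without. Where the window had 60% GC or more, 14 of 44 translation factor genes had a promoter peak (31.8%), beside 20.0% of all such genes. Where it had less, 6 of 13 had one (46.2%), beside 10.8%.

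The cap-binding complex eIF4F and its helicase cofactors had the highest promoter scores of the initiation factors by the deposited assignment. EIF4A2 and EIF4E were the 2 of 7 genes with a promoter peak. The EIF4A2 peak (chromosome 3, 186782930 to 186783638) was 709 bp wide, spanned the start and ranked 193 among the 3335 promoter peaks of protein-coding genes. EIF4E had its stronger peak, of 159, centred 519 bp upstream of the assigned start (chromosome 4, 98930864 to 98931448). This start is an alternative one, since the peak centre lies at -2023 bp from the RefSeq start of EIF4E used for sequences. A weaker peak of 37 lay in the first exon, 174 bp downstream (98928832 to 98929087). EIF4G3, a scaffold of the complex, had an intronic peak of 64 over an L1PA5 element, and EIF4H, which stimulates the helicase, an intronic peak of 82 over an AluSg4. The other helicase gene EIF4A1, the main scaffold gene EIF4G1 and EIF4B had no assigned peak. A peak of 37 at the far end of EIF4G1 was assigned to FAM131A.

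Relatives of these factors had lower promoter scores. EIF4A3, the helicase of the exon junction complex, had a peak of 45 over its start, one of 37 centred 1087 bp upstream and a distal one of 140 over a MER11B retroviral repeat. EIF4ENIF1, which carries eIF4E into the nucleus, had a peak of 45 across its assigned start, centred within the gene span (chromosome 22, 31489666 to 31490056). EIF4E1B, a germline form of the cap-binding protein, had a peak of 146 in its first intron over an MLT1J repeat. EIF4E2, EIF4E3 and EIF4G2 had none.

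The scaffold complex eIF3, which holds the small subunit ready for mRNA, had promoter peaks at 4 of 14 genes. EIF3B, a core subunit, had 128 (chromosome 7, 2354076 to 2354906, spanning the start). EIF3F had 78, EIF3G, an RNA-binding subunit, had 37, and EIF3M had 26, the lowest promoter score in the list. EIF3D and EIF3E had distal peaks only. The remaining genes EIF3A, EIF3C, EIF3CL, EIF3H, EIF3I, EIF3J, EIF3K and EIF3L had no assigned peak. EIF3C and EIF3CL are near-identical copies, and how reads that align to both were treated is not given in the sources used here.

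None of the 4 eIF2 genes, EIF2S1, EIF2S2, EIF2S3 and EIF2S3B, which encode the factor that brings the initiator tRNA, had a peak of any kind. With 4 genes the interval for the promoter share reaches 60.2%, so a difference from other groups was not detectable. EIF2S3 is 1 of 3 genes of the list on chromosome X, with EIF1AX and GSPT2. None of these had a peak, and 2.24% of protein-coding genes on that chromosome had a promoter peak. eIF2B, the exchange factor that recharges eIF2 with GTP, had promoter peaks at 2 of 5 genes. EIF2B3 scored 73 (chromosome 1, 44986562 to 44986939). EIF2B5, the catalytic subunit, scored 30 with a peak centred 1119 bp upstream, next to the start of the divergent transcript EIF2B5-DT. EIF2B1 and EIF2B2 had none. EIF2B4 had none assigned, but a peak of 38 lay 122 bp from its start and was assigned to the neighbour SNX17.

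The eIF2 kinases, which slow initiation under stress, had low promoter scores. EIF2AK2, the double-stranded RNA sensor PKR, had 45 (chromosome 2, 37157025 to 37157437). EIF2AK3, the endoplasmic reticulum stress sensor PERK, had 41. EIF2AK1 and EIF2AK4 had no assigned peak. The distal peaks of EIF2AK2 scored more than its promoter. One of 581 lay 7450 bp upstream over an AluYa5 element (37163809 to 37165185) and ranked 319 in the whole table. Another of 145 lay 2943 bp downstream of the start in the first intron, with no repeat label.

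Among the other initiation factors EIF2D, an alternative tRNA delivery factor, had a promoter peak of 64, and EIF2A had none. EIF5B, the GTPase that joins the ribosomal subunits, had 27, while EIF5 and EIF6 had none. EIF1, EIF1AX, EIF1B and EIF1AD, the 4 genes on the chromosomes with peaks grouped here as start codon scanning factors, had 0 promoter peaks assigned. EIF1 had a distal peak of 48 over a MER31B repeat. EIF1AD shares its promoter region with BANF1. A peak of 216 covered the EIF1AD start (chromosome 11, 66002054 to 66002678) and was assigned to BANF1, so it is not counted among the 22. EIF5A, which helps ribosomes through difficult peptide bonds and carries the amino acid hypusine, had 52 over its assigned start. That peak was 1008 bp wide and deposited as intronic, and the gene has 6 RefSeq start entries. The paralogue EIF5A2 had 37, and EIF5AL1 had none.

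Elongation factor promoters had low scores apart from EEF1D, an exchange factor subunit, at 101. EEF1A1, which delivers aminoacyl-tRNA and is among the most abundant cellular proteins, had 37 in its first intron (chromosome 6, 73520456 to 73520901). EEF2, the translocase, had 37 over its start (chromosome 19, 3985257 to 3985546). EEF1A2, EEF1B2, EEF1E1 and EEF1G had no assigned peak. Of 6 modifier genes, EEF2K, encoding eEF2 kinase, had a promoter peak of 29 that reached the window only by its width, with its centre at 1120 bp. EEF1AKMT2, EEF1AKMT3, EEF1AKMT4 and the readthrough gene EEF1AKMT4-ECE2 had no assigned peak.

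Release factors had 2 of 4. GSPT1 scored 191 in a peak 969 bp wide across the start (chromosome 16, 11915886 to 11916854), ranking 333 of the 3335. ETF1, encoding eRF1, which reads stop codons, scored 107 with its centre 324 bp upstream (chromosome 5, 138543367 to 138543754). ABCE1, the ribosome recycling ATPase, and GSPT2 had no peak. Promoter scores varied within groups, from 26 to 128 in eIF3 and from 37 to 101 in eEF1, and groups of 1 to 14 genes are too small to be told apart.

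**Figure D3:**
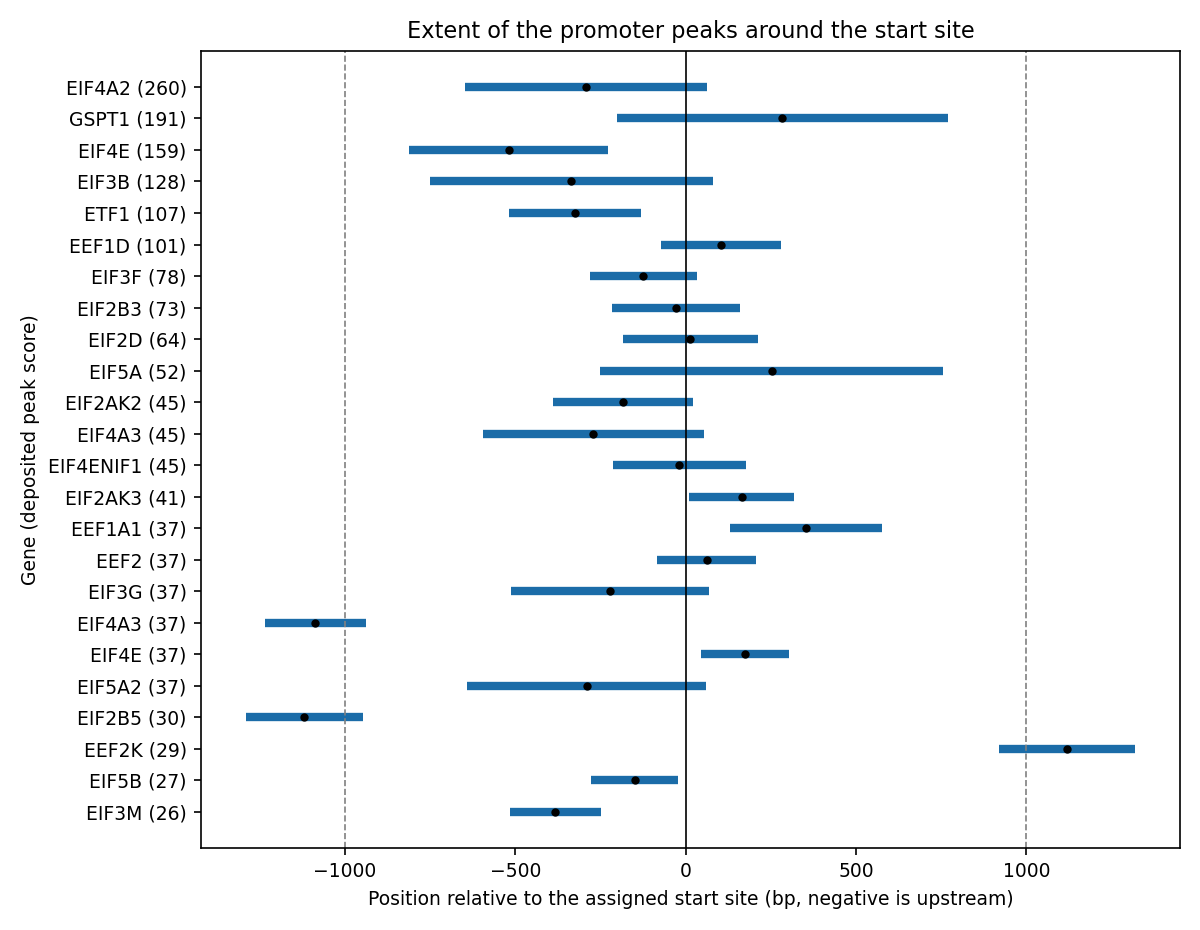
Extent of each of the 24 promoter peaks (bars, centre as a point) in bp from the assigned start site, ordered by score, given after each gene's name. Most bars lie within 1 kb either side (dashed lines), and those of EIF2B5, EEF2K and the second EIF4A3 peak have their centres beyond it.

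Most promoter peaks were centred close to the start. Their median centre was -137 bp, with 15 of 24 upstream (62.5%, 40.6 to 81.2%). Over all promoter peaks of protein-coding genes the median was -46 bp and 57.2% lay upstream. The start itself was covered by 14 of 24 (58.3%), beside 56.2%. Their median width was 392.5 bp, beside 446 bp. Of the 24 peaks, 18 were deposited in the promoter class, 3 as intronic, 2 as intergenic and 1 as exonic. The edges nearest to the window's limit were those of EEF2K, EIF4A3 and EIF2B5, at 920.5, 939 and 947 bp from the start, while the nearest distal peak, that of EIF2AK2, had its edge at 2561 bp. No promoter peak had a repeat label at its centre (0 of 24, interval to 14.2%, while a limit of 3 counts gives 12.5%), beside 3.51% of all. Each peak carries a single detailed label, and a promoter or exon label can stand in place of a repeat label. With 18 of the 24 in the promoter class, the 0 does not show that repeats are absent under these peaks. Start sites of other genes lay within 1 kb of 3 of the peaks, those at EIF2AK3, EIF2B5 and EIF5B.

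Distal peaks lay mostly in repeats. A repeat label was at the centre of 18 of 24 (interval 53.3 to 90.2%), beside 76.6% of the 12040 distal peaks of protein-coding genes. L1 elements held 8 (33.3%, 15.6 to 55.3%, beside 40.9%) and Alu elements 4 (16.7%, 4.74 to 37.4%, beside 4.39%). The Alu peaks were at EIF2AK2, EIF3E, EIF4H and EIF3D. How reads that align to several places were treated is not given in the sources used here, so the position of a peak within a repeat family is uncertain. The median distal score was 66.5, beside 61, and the median distance from the start was 16019 bp, beside 27180.5 bp.

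**Figure D4:**
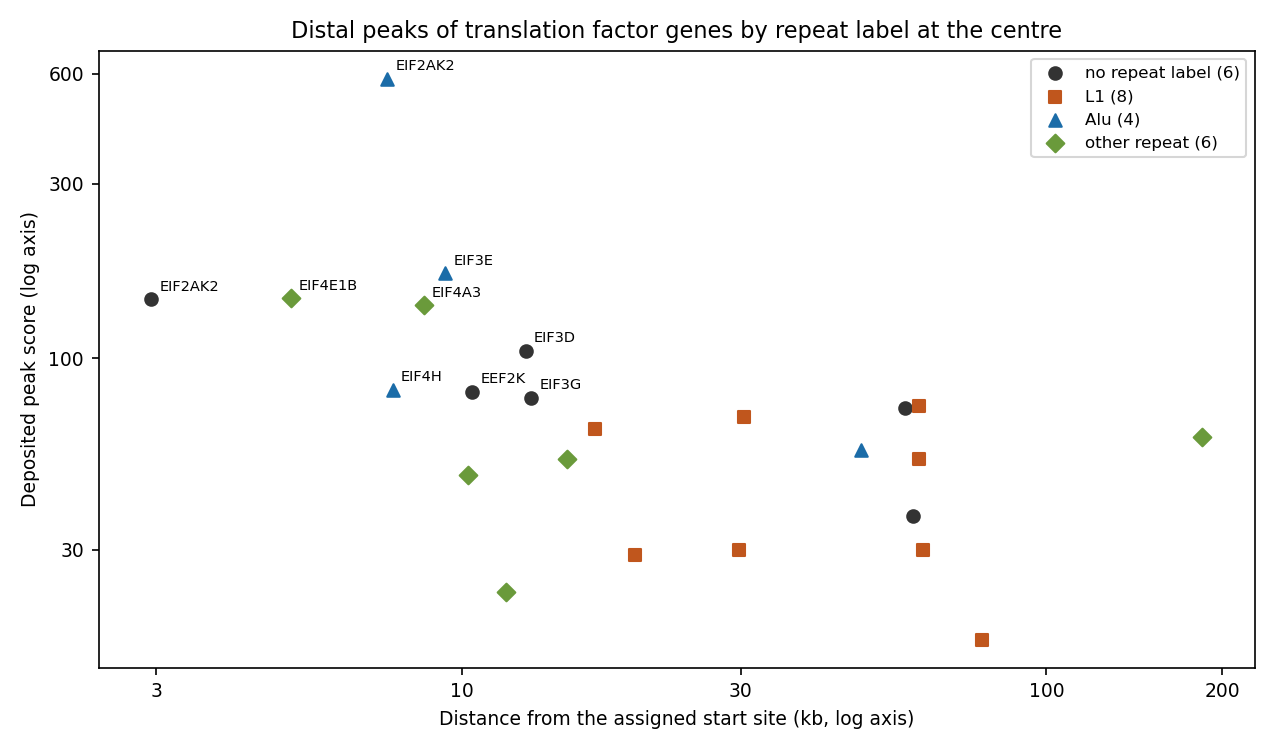
Score (vertical log axis) against distance from the assigned start site in kb (horizontal log axis) for the 24 distal peaks, with markers for the repeat label at the centre and names from a score of 78 upward. The peaks that score above 100 all lie within 13 kb of the start, and the 8 L1 peaks score 74 or less.

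After EIF2AK2 with 581 and 145, the next distal peaks by score were those of EIF3E (171, intronic, AluJb), EIF4E1B (146), EIF4A3 (140), EIF3D (105), EIF4H (82), EEF2K (81), EIF3G (78) and EEF1A1 (74). Several of them are tied to the gene by distance alone. Of the 24, 8 were centred within the assigned gene, 4 within another gene only and 12 in no gene. EIF3D, a subunit that can itself bind the mRNA cap, had no promoter peak and 5 distal ones with scores from 23 to 105. They spread over 45828 bp upstream, 2 of them in an intron of CACNG2. EEF1A1 had 3 distal peaks of 74, 37 and 30 that lay within 2741 bp of each other, about 60 kb upstream. EIF3M had 1 of 53 over an L1PA4 and 1 of 17 over an L1PA5 in CCDC73. The peak assigned to EEF2KMT, which methylates eEF2, lay 184689 bp away in RBFOX1. EEF1AKMT1, which methylates eEF1A, had 2 in its own intron with 30 and 29, both over L1 elements. EIF2B3 had an intronic peak of 69 over an L1PA7. Peaks inside EEF1E1 (89, over an L1MB3) and EIF2AK4 (41, over a THE1B internal sequence) were assigned to neighbours, SCARNA27 and SRP14. So were a peak of 50 near the far end of EIF3G, to P2RY11, and a peak of 48 at the far end of EEF1AKMT3, to TSFM.

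Regulators and partners of these factors, a list of 27 genes, had promoter peaks at 10 (37.0%, 19.4 to 57.6%), beside 15.5% of all protein-coding genes. ATF4, the transcription factor whose mRNA is translated when eIF2 is phosphorylated, had 416 (chromosome 22, 39520171 to 39520658), above every promoter of the translation factors. EEFSEC, the selenocysteine elongation factor, had 126. LARP1, which represses mRNAs with a pyrimidine start and is an mTORC1 substrate, had 80 and 69 at 2 starts. DOHH and DHPS, which make hypusine on eIF5A, had 71 and 45. MKNK2, a kinase of eIF4E, had 64 and 25 at its promoter and distal peaks of up to 414. DENR and the S6 kinase gene RPS6KB2 had 49 each, PAIP1 29 and PPP1R15A, a phosphatase subunit for eIF2, 25. The main S6 kinase gene RPS6KB1, EIF4EBP2, EIF4EBP3, PDCD4 and 10 others had no assigned peak, and EIF4EBP1 had a distal one of 137 over a MER11A repeat.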

How the data were processed

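Peaks of 1 mTOR ChIP library from MDA-MB-231 cells, called by the authors with input as reference, were deposited as 1 annotated table on hg38. Trimmomatic 0.36, BWA 0.7.12, Picard 2.0.1, MACS2 2.1.1.20160309 and HOMER 4.11.1 are the tools listed, with no settings, per the submitters' processing notes. The peak threshold and the treatment of duplicate or multiply aligned reads are not stated there, and could change peaks over repeats and gene copies. The deposited score is a whole number per peak without a stated scale, and positions and distances to the start site were used as deposited, per the file headers. The input library itself was not analysed here.

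Peaks were matched to 19974 protein-coding genes of RefSeq on GRCh38.p14 by gene identifier. A promoter peak overlaps 1 kb either side of the start site, from the deposited distance and the width. This rule was tested on 20000 simulated peaks. Shares were compared with those of all protein-coding genes without a test. The members, groups and lists were chosen with earlier results of these data known. Named are every gene with a promoter peak, the 10 top distal peaks, genes with 3 or more distal peaks and genes without a peak in the main complexes. Promoter sequences and the 9 motifs used RefSeq windows. Alternatives were windows of 100 bp and 5 kb, other promoter definitions and score limits. Analyses ran in Python 3.11.15 (scipy 1.17.1, pandas 2.3.3, matplotlib 3.10.9, numpy 2.4.6).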

Additional observations from a re-analysis of the deposited data

How the results depend on the processing

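The promoter count of 22 genes stayed between 17 and 23 with centres within 1 kb, at least 50% of the peak in the window, the deposited promoter class and windows of 5 kb or 100 bp. With any peak within 1 kb of a reference start it was 22 of the 57 genes with such a start, where EIF1AD and EIF2B4 entered and EEF1D and EIF3G, which have no reference start row, left. The share of all protein-coding genes was 14.98% with centres within 1 kb and also with at least 50% of the peak in the window, 12.01% for the deposited class, 10.9% for 100 bp, 20.3% for 5 kb and 19.2% for reference starts. Settings added after seeing the data gave 17 of 53 without kinases, modifiers, eIF4 relatives and the readthrough gene, beside 15.5%, and 20 of 67 without chromosome 19, beside 14.7%. The count fell to 9 among the 10720 higher-scoring peaks (7.45% of all genes) and to 1 among the 2144 top-scoring ones (1.57%), where fewer peaks remain by construction. Groups with a promoter peak numbered 12 of 14, and 6 among the higher-scoring peaks. The 24 distal peaks became 14 among the higher-scoring peaks and 6 without repeat labels. They became 13 when every peak inside a gene span was counted whatever its assigned gene. Peaks inside gene spans include the one of 216 that covers the EIF1AD start and was assigned to BANF1. The median promoter score of 45 was 54.5 with the deposited promoter class. Neither library has a replicate, and the depth is unknown, so absence of a peak is not absence of mTOR there. No paired analysis was possible because each group has 1 library and the result comes from no test.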

Other observations

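Many translation factor genes have processed copies elsewhere in the genome. The gene table held 160 pseudogenes whose names follow the same rule, and the deposited annotation assigned a peak to 0 of them. Peaks overlapped 2, named here after their values were seen. The shares over all pseudogenes were not computed, so both counts are descriptions only. EIF3JP3 had a peak of score 56 on chromosome 9 (87743046 to 87743376) over an LTR8 repeat, assigned to CTSL. EIF4BP2 had a peak of 38 on chromosome 10 (21030191 to 21030448) with no repeat label, assigned to NEBL.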
